A study of Saccharomyces cerevisiae with 12 samples.

Results

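The mitochondrial protein import and sorting machinery of budding yeast was followed as 33 genes out of 6660 in the deposited expression tables. The genes were taken by name: 12 encode proteins of the outer membrane, 7 of the intermembrane space and 14 of the inner membrane and its matrix side. Expression of mRNA was measured by sequencing in 12 libraries of the BY4741 background, a MATa laboratory strain, in a study of how contacts between the endoplasmic reticulum and mitochondria bear on iron. Cells were grown in YPD, a rich glucose medium, to an OD600 of 0.8 to 1. Wild type (WT) and mmm1Δ had 2 libraries each. There was 1 library each of the single mutants mdm34Δ, sam37Δ, AFT1-C291F and VPS13-D716H, and of the double mutants that join VPS13-D716H to mmm1Δ or to sam37Δ. Medium labelled clean YPD gave 2 more WT libraries, 1 untreated and 1 from cells held for 4 hours with 100 µM BPS, an iron chelator. MMM1 and MDM34 encode subunits of ERMES, which tethers the endoplasmic reticulum to mitochondria. VPS13 encodes a lipid transfer protein at organelle contacts, and D716H is a point mutation in it. AFT1 encodes the activator of the iron regulon, and the library with the C291F mutation is titled Aft1-1up. Nothing in the labels says whether 2 libraries of a group came from separate cultures, or how many isolates of a mutant were used.

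Most mitochondrial proteins are made in the cytosol and enter through the TOM complex of the outer membrane. From there the SAM and MIM complexes insert outer membrane proteins, the MIA relay oxidises small cysteine-rich proteins in the intermembrane space, small TIM chaperones carry hydrophobic precursors to the TIM22 complex, and the TIM23 complex with its PAM motor passes presequence proteins into the inner membrane or matrix. SAM37, which is deleted in 2 of the libraries, is itself a member: its product is a SAM subunit on the cytosolic side of the outer membrane.

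Values are FPKM (fragment counts corrected for gene length and for the library's mapped fragments) in 3 tables that were taken as scaled separately. Replicate 1 of WT and mmm1Δ shares the first table with mdm34Δ. Replicate 2 of both is in the second table, with all the other mutants, and the clean YPD libraries are in the third. The label of WT replicate 2 names the workbook of the clean YPD libraries, but its column stands in the second table, which was followed here. Median FPKM was 12.3 to 15.5, 40.2 to 44.3 and 50.4 to 52.2 in the 3 tables, so mutants were compared with WT only within a table. The deleted genes followed the labels: MMM1, MDM34 and SAM37 were listed at 0 in every library that lacks them and above 0 in all others. The MATa genes MFA1, MFA2 and STE2 were at an FPKM of 136 or more in every library, and STE3, a gene of MATα cells, was at 17.2 or less. Several libraries stood apart from WT of their own table, AFT1-C291F the furthest, with a rank correlation of 0.839 with WT replicate 2 over 6268 genes. With WT replicate 2, mmm1Δ replicate 2 and sam37Δ each had 0.910 and VPS13-D716H sam37Δ had 0.903. Both libraries without SAM37 were more like WT in clean YPD, at 0.949 and 0.946 untreated and at 0.950 each with BPS. In the first table mdm34Δ had 0.883 with WT replicate 1. The library of VPS13-D716H mmm1Δ also stood apart, with 0.880 against WT replicate 2 and 0.880 against mmm1Δ replicate 2.

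Most import genes lay in the upper part of the expression range, led by the small TOM subunits. FPKM is per length, so levels were ranked among all genes of a library. The median member of the outer membrane lay between percentile 82.5 and 88.4 in the 12 libraries, that of the intermembrane space between 70.7 and 90.1, and that of the inner membrane between 74.2 and 82.1. TOM5, TOM6 and TOM7, small subunits of the TOM complex, lay at or above percentile 95.6 in every library. The pore subunit TOM40 ranged from percentile 85.4 to 91.3. TOM22, the central receptor, ranged from 86.4 to 94.4, and TOM20, the presequence receptor, from 87.1 to 93.8. The receptors for internal targeting signals were lower, with TOM70 at percentile 56.3 to 76.9 and its paralog TOM71 at 46.9 to 61.1.

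In the outer membrane insertion complexes, the channel gene SAM50 lay at percentile 51.4 to 63.0 and SAM35, a subunit that recognises the sorting signal of beta-barrel proteins, at 67.6 to 83.2. SAM37 had the lowest median of the members, percentile 42.2, and ranged from 24.4 to 57.4 in the 10 libraries that carry it. MIM1, a subunit of the complex that inserts helical outer membrane proteins, lay at 69.2 to 92.5. Among the small TIM chaperones TIM10 was at 94.1 or above, while its partner TIM9 lay at 67.2 to 90.1. TIM8 ranged from 83.5 to 96.7 and its partner TIM13 from 82.8 to 91.8, and TIM12, which docks the chaperones on TIM22, from 68.8 to 88.1. The oxidoreductase MIA40 ranged from 53.6 to 80.9 and ERV1, which reoxidises it, from 70.7 to 82.8.

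In the inner membrane the TIM23 channel genes were high, with TIM17 at percentile 89.9 to 95.6 and TIM23 at 84.2 to 91.6. The receptor TIM50 lay at 61.0 to 76.3, and TIM21, which links TIM23 to the respiratory chain, at 60.0 to 79.7. The carrier translocase was lower: its channel gene TIM22 lay at 54.3 to 73.6, its other subunits TIM54 and TIM18 at 52.8 to 65.4 and at 63.8 to 75.9. Of the motor, the Hsp70 gene SSC1 lay at 86.5 to 92.6, its nucleotide exchange factor MGE1 at 75.8 to 90.7, and TIM44, which tethers it to the channel, at 65.6 to 79.6. The other motor subunits PAM18, PAM16 and PAM17 had ranges of 74.9 to 88.8, 72.3 to 93.1 and 79.8 to 92.1. OXA1, the insertase for proteins that enter the inner membrane from the matrix, lay at 80.5 to 83.2 in the first table and at 43.5 to 60.9 in the other 2, so its ranges did not overlap between tables, as for the 11% of genes that lay higher in every library of the first table than of the second, where 15.4% lay lower.

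**Figure D1:**
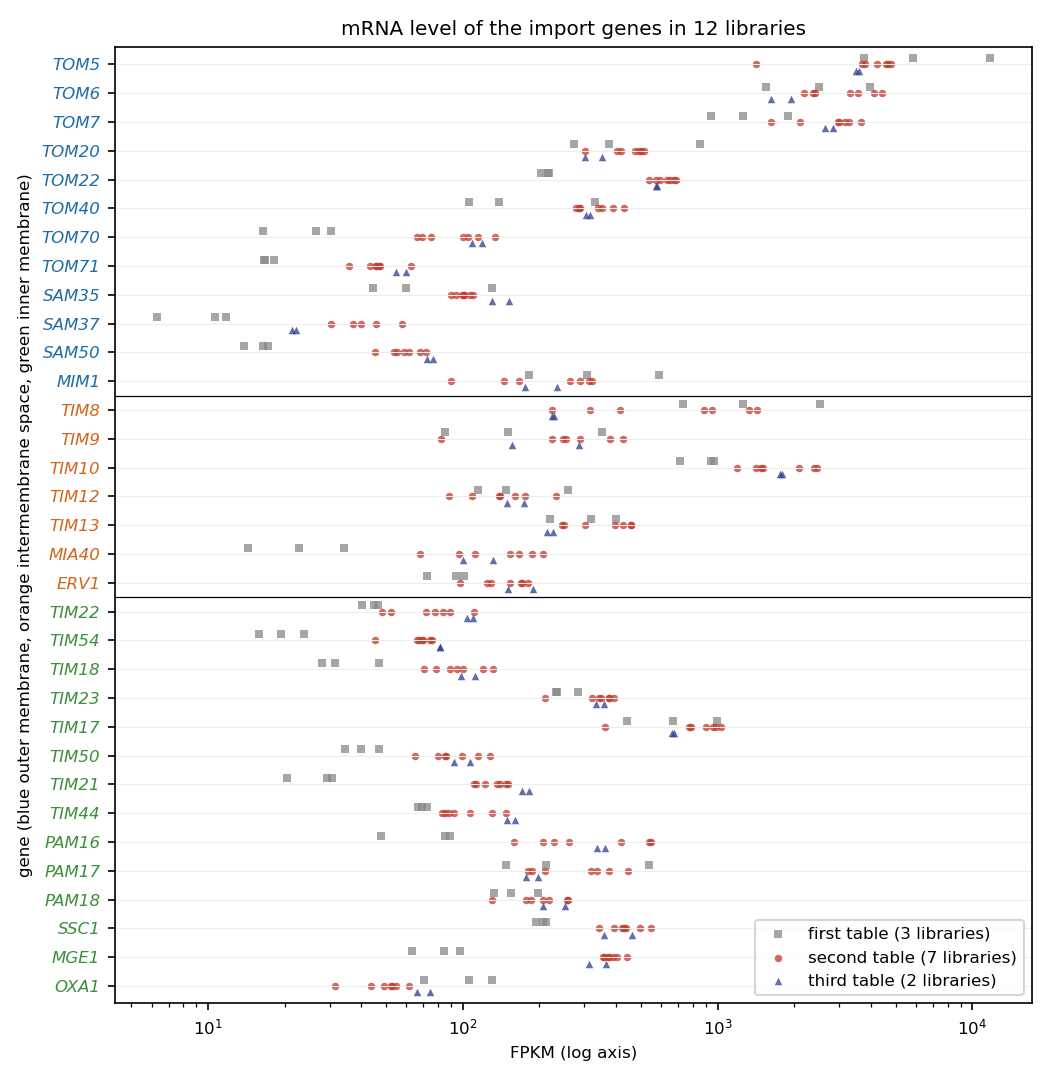
FPKM of the 33 import genes (rows, coloured by compartment) on a log axis, with 1 point for each library in which the gene is not listed at 0 and a symbol for each of the 3 tables. TOM5, TOM6 and TOM7 sit at or above percentile 95.6 of all genes in every library, beside TIM10 and TIM8 in some, and the first table lies to the left of the others for genes such as TOM70, MIA40 and MGE1.

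Ratios were taken as log2 of (FPKM + 1) in 1 library over WT of its table, and a ratio of 2-fold or more was counted. The +1 understates changes of low genes, but every member passed the minimum mean FPKM of 5 in every pair. Over 9 such pairs there were 295 member ratios, of which 5 were 2-fold higher and 26 were 2-fold lower, beside 8.2% and 10.7% of the ratios of all genes. Genes shorter than 300 nt, which include TOM5, TOM6, TOM7, TIM8, TIM9 and TIM10, had a median ratio over all genes from -1.06 in mdm34Δ to 0.41 in VPS13-D716H mmm1Δ, so length and level moved with the ratios. When the running median over level and length was subtracted, the counts were 17 higher and 4 lower, beside 7.02% and 6.88% for all genes. The 6 members that stayed past 2-fold in the same direction in at least 1 pair by that measure were TOM7, MIM1, TIM8, TIM9, MIA40 and PAM16. Fewer transcripts of a gene and a shift of all short mRNAs cannot be told apart in these values.

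The promoters of these 6 genes are shown because each kept at least 1 ratio past 2-fold with the length trend removed. All 2-fold ratios of MIA40 and PAM16 did so, but TOM7, MIM1, TIM8 and TIM9 each had others that did not. In mdm34Δ the ratio of TIM8 went from -1.79 to 0.02 and that of TOM7 from -1.01 to 0.75. Each run is the coding strand from 300 to 51 bases before the start codon, from RefSeq assembly R64. Capitals mark CCAAT, the core of sites for the Hap complex, which activates respiratory genes, or its complement ATTGG, and in TIM9 also TTACCCG, the core of Reb1 sites.
TOM7 (chrXIV:493066-493315, plus strand): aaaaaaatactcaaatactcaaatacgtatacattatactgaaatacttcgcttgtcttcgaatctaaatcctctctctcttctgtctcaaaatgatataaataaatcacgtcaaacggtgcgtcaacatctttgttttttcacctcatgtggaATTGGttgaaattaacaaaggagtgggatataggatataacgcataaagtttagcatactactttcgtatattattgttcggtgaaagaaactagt
MIM1 (chrXV:274404-274653, minus strand): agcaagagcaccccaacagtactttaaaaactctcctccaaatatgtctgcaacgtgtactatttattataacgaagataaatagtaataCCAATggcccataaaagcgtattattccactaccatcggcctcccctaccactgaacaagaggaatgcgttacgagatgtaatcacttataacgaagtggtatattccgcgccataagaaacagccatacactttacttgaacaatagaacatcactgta
TIM8 (chrX:676671-676920, plus strand): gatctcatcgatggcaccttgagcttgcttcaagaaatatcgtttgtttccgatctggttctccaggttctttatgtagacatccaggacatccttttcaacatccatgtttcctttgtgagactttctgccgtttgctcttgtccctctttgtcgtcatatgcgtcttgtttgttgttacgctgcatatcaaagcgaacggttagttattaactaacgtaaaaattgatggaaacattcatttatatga
TIM9 (chrV:116911-117160, plus strand): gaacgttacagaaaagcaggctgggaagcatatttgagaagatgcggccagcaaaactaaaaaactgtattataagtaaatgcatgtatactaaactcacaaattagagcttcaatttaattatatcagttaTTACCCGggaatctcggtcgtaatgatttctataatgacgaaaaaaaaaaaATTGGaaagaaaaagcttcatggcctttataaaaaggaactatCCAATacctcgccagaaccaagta
MIA40 (chrXI:75521-75770, plus strand): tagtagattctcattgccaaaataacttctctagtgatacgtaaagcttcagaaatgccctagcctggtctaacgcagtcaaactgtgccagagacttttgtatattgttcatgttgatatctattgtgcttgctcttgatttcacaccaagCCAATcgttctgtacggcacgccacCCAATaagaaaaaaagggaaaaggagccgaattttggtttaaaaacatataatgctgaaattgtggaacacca
PAM16 (chrX:227027-227276, plus strand): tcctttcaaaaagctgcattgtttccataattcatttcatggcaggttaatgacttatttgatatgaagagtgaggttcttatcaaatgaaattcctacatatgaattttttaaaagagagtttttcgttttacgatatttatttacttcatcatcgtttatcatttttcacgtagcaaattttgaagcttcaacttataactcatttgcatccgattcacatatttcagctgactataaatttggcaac
The windows of TIM8 and PAM16 hold neither motif, that of MIM1 and that of TOM7 hold 1 CCAAT each, and those of TIM9 and MIA40 hold 2 each. The TIM8 window overlaps the neighbouring gene YJR135C by 108 bases, that of TIM9 overlaps YEL021W by 60 bases and that of MIA40 overlaps YKL196C by 14 bases. Searched on both strands, CCAAT was in 11 of 33 member windows, or 33.3%, against 36.3% of 6001 promoters. TTACCCG was in 6.06% of member windows, those of TIM9 and TIM44, against 7.85%. The Rpn4 site GGTGGCAAA, the Hsf1 element in either phase (TTC, GAA and TTC, or GAA, TTC and GAA, each 2 bases apart), and the Aft1 core TGCACCC were in 0 of 33 member windows and in 1.13%, 0.850%, 0.850% and 1.15% of all promoters. A match is a string of letters and does not show binding.

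**Figure D2:**
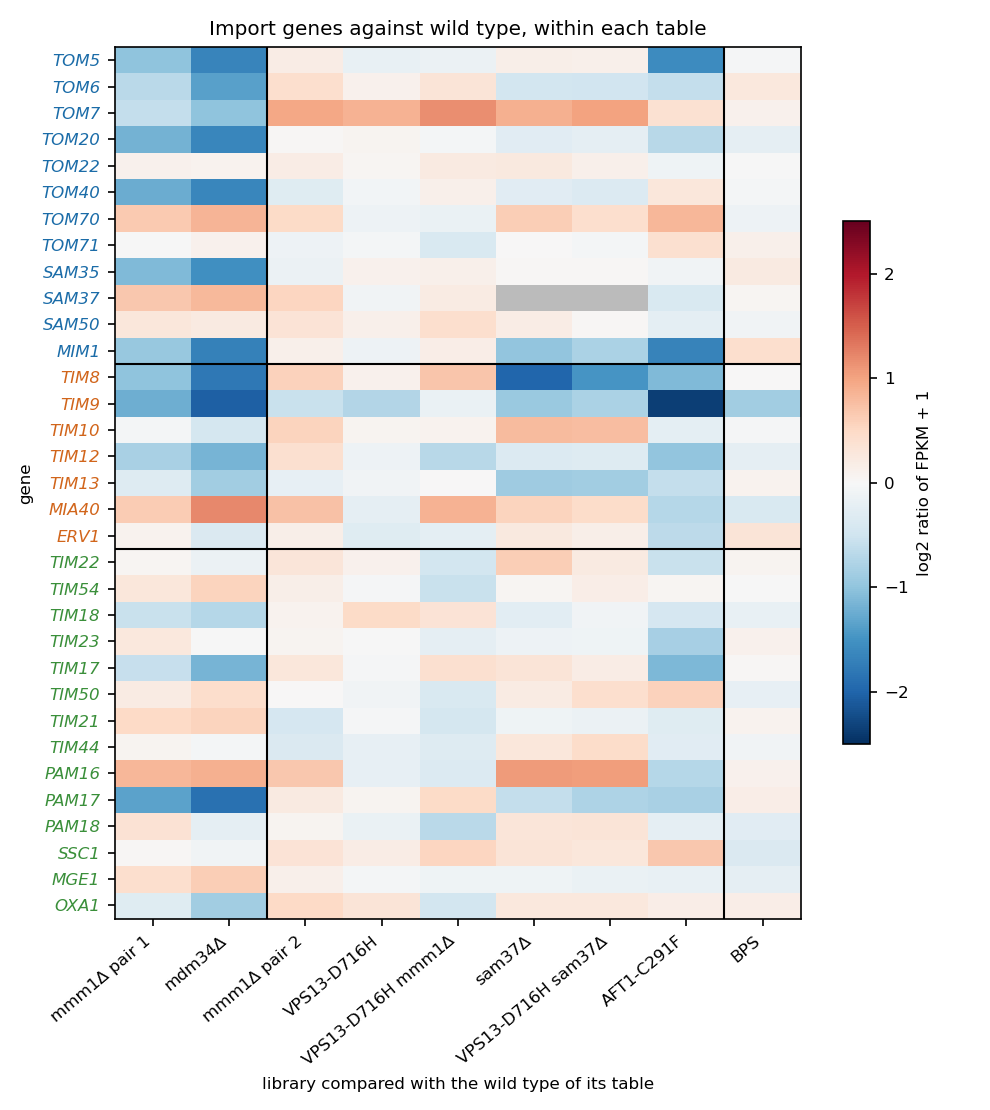
Log2 ratio of FPKM + 1 for the 33 import genes (rows) in 9 libraries, each against WT of its table (columns, with lines between tables). Red is higher and blue lower than WT, and grey marks SAM37 where it is deleted. TIM8 is darkest blue in both sam37Δ columns, and TIM9 in AFT1-C291F.

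In both libraries that lack SAM37, TIM8 had the lowest and PAM16 the highest ratio to WT of the other 32 members, though with the length trend removed TOM7 was highest, at 2.05 and 2.13. TIM8 (YJR135W-A, chromosome X, 676971 to 677234, R64) encodes the partner of Tim13 that escorts precursors such as Tim23. Its FPKM was 884 in WT replicate 2 and 952 in VPS13-D716H, against 223 in sam37Δ and 316 in VPS13-D716H sam37Δ. Both libraries without SAM37 were below every other library of that table, including AFT1-C291F at 412. In clean YPD, whose table is scaled separately and where SAM37 is intact, TIM8 was at 225 without and 227 with BPS. PAM16 (YJL104W, chromosome X, 227327 to 227776), whose product restrains the J protein Pam18 at the motor, had an FPKM of 262 in WT replicate 2 and 228 in VPS13-D716H, against 549 in sam37Δ and 540 in VPS13-D716H sam37Δ. Both values were above every other library of the table, of which mmm1Δ replicate 2 was nearest with 418. TIM8 ratios were -1.98 with WT VPS13 and -1.59 with VPS13-D716H, and PAM16 ratios were 1.06 and 1.24, each library set against its own VPS13 background. With the length trend removed both genes stayed past 2-fold against WT in both libraries, beside 6.49% of genes higher and 6.52% lower in sam37Δ and 7.18% and 6.7% in VPS13-D716H sam37Δ. By that measure PAM16 was at 1.53 and 1.42, and TOM5, TOM7 and TIM10 also passed 2-fold higher in both.

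An additive limma fit over 6 libraries of the table, with terms for the VPS13 allele, mmm1 and sam37, tested the deletion with 2 residual degrees of freedom. SAM37 itself, listed at 0 in both libraries, passed with a limma adjusted p of 0.024. None of the other 32 members passed a Benjamini-Hochberg adjusted p of 0.05, where 0.0478% of 6280 genes rose and 0.939% fell, and 8 members had an unadjusted p under 0.05, as had 22.5% of all genes. The fitted change of TIM8 was -1.79 ± 0.20 (moderated SE, limma adjusted p = 0.0552), with the mRNA lower in 2 of 2 libraries. That of PAM16 was 1.15 ± 0.31 (limma adjusted p = 0.161), higher in 2 of 2. The other 6 were TIM13 at -0.83 ± 0.19, MIM1 at -0.82 ± 0.19, PAM17 at -0.72 ± 0.20, TOM6 at -0.52 ± 0.16, TIM10 at 0.74 ± 0.22 and MIA40 at 0.62 ± 0.20, with limma adjusted p from 0.128 to 0.192. In this fit a departure from additivity counts as error.

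Fitted without the 2 mmm1Δ libraries, with 1 residual degree of freedom, the SE of PAM16 was 0.11 and 8 members passed, beside 8.06% of all genes that rose and 14.1% that fell. TIM10, MIA40, PAM16 and TOM70 were called higher and TIM8, TIM13, MIM1 and PAM17 lower, with limma adjusted p of 0.0161 for TIM8 and 0.0193 for PAM16. Leaving out only 1 of the mmm1Δ libraries gave 7 members called. With 4 of 32 in each direction, the members were called about as often as all genes. By compartment the fitted median was 0.00 for the outer membrane, -0.27 for the intermembrane space and 0.16 for the inner membrane, beside 0.02 over all genes.

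Within the intermembrane space TIM10 and TIM9 were on opposite sides of WT, while TIM8 and TIM13 were both lower. TIM10 (YHR005C-A, chromosome VIII, 115620 to 115901), a chaperone that works in a ring with Tim9, had an FPKM of 1413 in WT replicate 2, 2451 in sam37Δ and 2397 in VPS13-D716H sam37Δ. TIM9 had 425, 224 and 246 in the same libraries, and 254 in VPS13-D716H, so its ratio was -0.92 with WT VPS13 but -0.04 with VPS13-D716H. TIM13 had 457, 246 and 249. The difference between partners was not tested. The other SAM genes stayed near WT, with fitted changes of -0.03 ± 0.19 for SAM35 and 0.05 ± 0.18 for SAM50 (limma adjusted p of 0.941 and 0.892), which does not show equal levels. The resemblance of these libraries to clean YPD touched the members too. Of 32 members, 23 had a percentile in sam37Δ nearer to WT in clean YPD than to WT replicate 2, as had 62.7% of 6268 genes. The part of that resemblance in the TIM8 and PAM16 values was not tested.

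**Figure D3:**
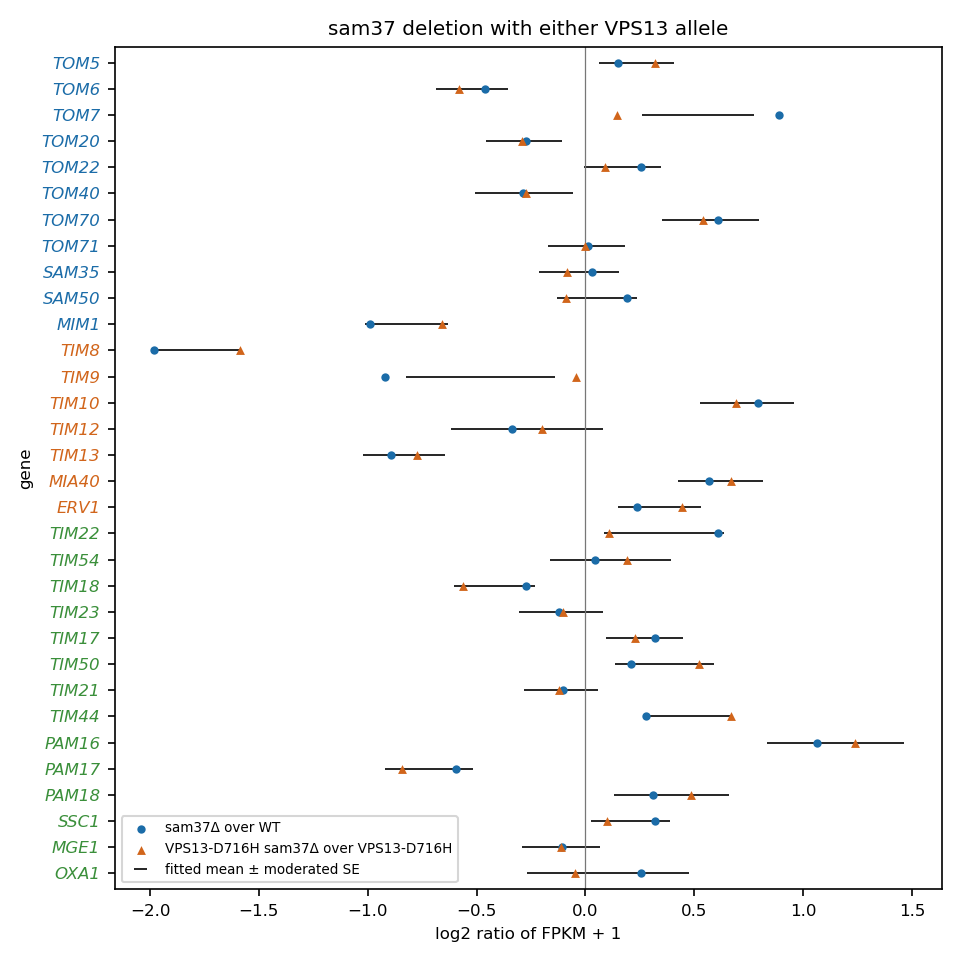
Log2 ratio of FPKM + 1 without SAM37 for 32 import genes (rows) with WT VPS13 (circles) and with VPS13-D716H (triangles), and lines for the fitted mean ± moderated SE. TIM8 lies at -1.98 and -1.59 and PAM16 at 1.06 and 1.24, and most pairs of points fall close together.

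Loss of MMM1 gave no call among the import genes, and members such as TOM5 and TIM8 had opposite signs in the 2 replicates. With the replicate as a block, limma called 2.74% of 6029 genes higher and 1.01% lower, and 0 of 33 members, of which none had an unadjusted p under 0.05, beside 19% of all genes. TOM5 went from an FPKM of 11778 in WT to 5868 in mmm1Δ of replicate 1 and from 4211 to 4803 in replicate 2. TIM8 went from 2529 to 1255 and from 884 to 1324. Both were lower in replicate 1 and higher in replicate 2. In replicate 1, 7 members were 2-fold lower and 0 higher, beside 15.8% and 8.28% of all genes. They were TOM5, TOM20, TOM40, SAM35, TIM8, TIM9 and PAM17, of which PAM17 was lowest with a ratio of -1.35, and with the length trend removed none was 2-fold lower, beside 7.3% of genes, and TOM5 and TIM8 were above 0. In replicate 2 no member passed 2-fold, where 8.57% of genes were higher and 6.69% lower. With the trend removed TIM10 and PAM16 were 2-fold higher in replicate 1, beside 8.12% of genes, and TOM7 in replicate 2, beside 8.37%.

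By sign alone, 14 of 33 members were higher in both replicates, 5 were lower in both, namely TOM40, TOM71, SAM35, TIM9 and TIM13, and 14 had opposite signs. With the length trend removed, 21 were higher in both, 4 were lower in both and 8 had opposite signs. Signs were not counted over all genes, so these counts do not set the members apart. The 6 members with the lowest p are given next. MIA40 (YKL195W, chromosome XI, 75821 to 77032), the receptor and oxidase of the relay, had an FPKM of 14.3 in WT and 22.7 in mmm1Δ of replicate 1 and of 112 and 186 in replicate 2. PAM16 had 47.7 and 85.1, then 262 and 418. TOM70 had 16.5 and 26.5, then 74.96 and 105. These 3 and SAM37 were among the 14 that were higher in both replicates, and TIM9 (YEL020W-A, chromosome V, 117211 to 117474) was among the 5 that were lower, at 352 and 151, then 425 and 290. The fitted changes were 0.68 ± 0.32 for MIA40, 0.75 ± 0.37 for PAM16, 0.57 ± 0.32 for TOM70, 0.61 ± 0.30 for SAM37, -0.88 ± 0.41 for TIM9 and -0.78 ± 0.42 for TOM40, with limma adjusted p from 0.293 to 0.382. TIM9 and TIM13 share their listed locus with a neighbouring gene, so their reads may be split.

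The other ERMES deletion, mdm34Δ, had 1 library and no test. In all, 12 members were 2-fold lower and MIA40 was 2-fold higher, beside 23.4% of genes lower and 11.8% higher. MIA40 had an FPKM of 34.0, against 14.3 in WT replicate 1. The lower ones were TOM5, TOM6, TOM7, TOM20, TOM40, SAM35 and MIM1 of the outer membrane, TIM8, TIM9 and TIM12 of the intermembrane space, and TIM17 and PAM17 of the inner membrane. TIM9 had the lowest ratio, with an FPKM of 85.2 against 352. The median ratio was -1.18 in the outer membrane, -0.86 in the intermembrane space and -0.07 in the inner membrane, beside 0.00 over all genes. With the length trend removed the 3 medians were 0.17, 0.14 and 0.35, no member was 2-fold lower, beside 11.7% of all genes, 5 of the 13 ratios had the other sign, and TOM22, TIM10, MIA40, TIM23, PAM16 and MGE1 were 2-fold higher, beside 10% of all genes.

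**Figure D4:**
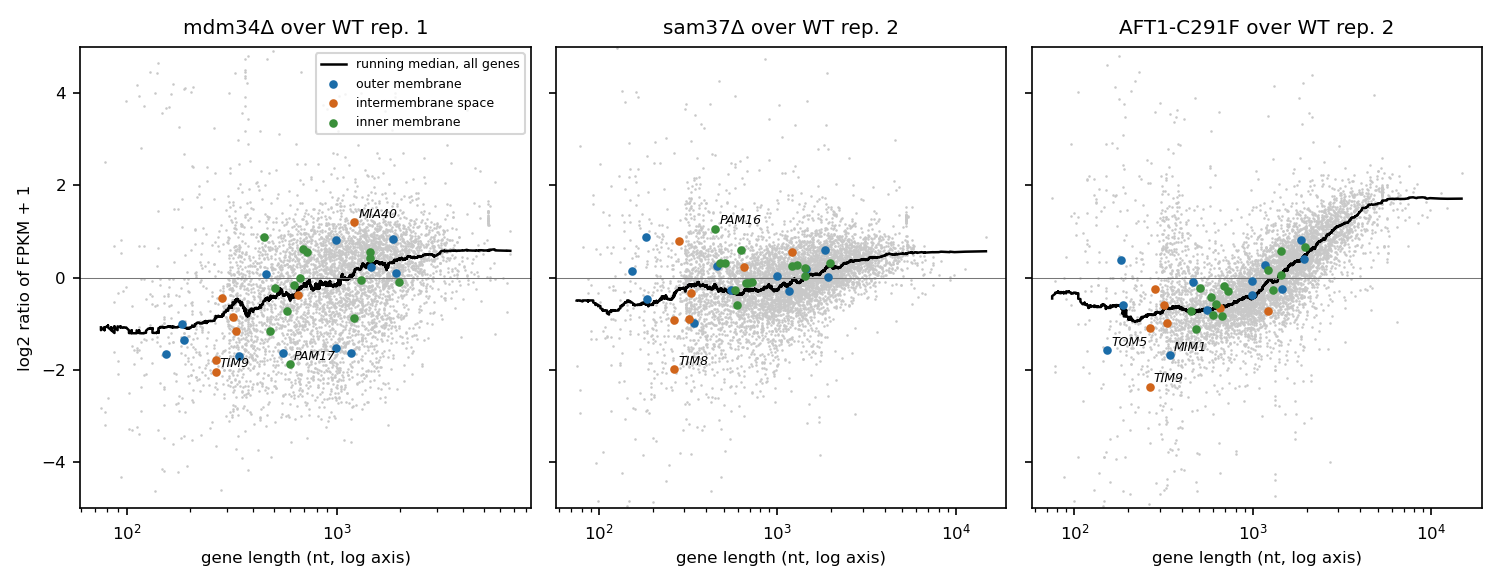
Log2 ratio of FPKM + 1 against gene length (log axis) in 3 libraries, with all genes in grey, their running median as a line and the import genes coloured by compartment. The axis ends at a ratio of 5 in either direction, and genes beyond it are not drawn. The line slopes upward in each panel, and TIM8 in sam37Δ and TIM9 in AFT1-C291F lie well below it.

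With the VPS13-D716H allele alone the import genes were within 2-fold of WT, as were most genes. None of 33 members was 2-fold changed, beside 2.21% of genes higher and 2.09% lower, and the ratios ran from -0.74 for TIM9 to 0.87 for TOM7. In a single library this does not set the members apart or show equal levels. TOM7 had an FPKM of 1626 in WT replicate 2, the lowest of its table, and 2966 in VPS13-D716H. In the additive fit over 3 backgrounds limma called 0 of 6280 genes for the allele, of which 53, or 0.844%, had an unadjusted p under 0.05. The members ran from -0.41 ± 0.26 for PAM16 to 0.40 ± 0.21 for TOM7. An allele effect that differs between backgrounds counts as error in this fit, so the lack of calls does not show that there is no effect.

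With VPS13-D716H and mmm1Δ combined, most inner membrane members were below WT. TOM7 was the only member 2-fold higher than WT, at 3657, and none was lower, beside 11.7% and 11.6% of genes. The inner membrane median was -0.33, beside 0.15 in the outer membrane, 0.00 in the intermembrane space and 0.00 over all genes. Of the inner membrane members 10 of 14 were below 0. In mmm1Δ replicate 2 their median was 0.14, beside -0.03 over all genes, with 12 of 14 above 0. Signs were not counted over all genes. PAM16 was at 207 against 418 in mmm1Δ replicate 2, TIM12 at 108 against 232, and OXA1 at 31.4 against 61.6. These are single libraries and the difference was not tested. In VPS13-D716H sam37Δ, TOM7 at 3275 and PAM16 were 2-fold higher than WT and TIM8 was lower, beside 6.81% and 10.9% of genes. In sam37Δ only PAM16 and TIM8 passed 2-fold, beside 6.32% and 10.7%. Against sam37Δ itself, VPS13-D716H sam37Δ had ratios from -0.39 for TIM22 to 0.50 for TIM8.

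In AFT1-C291F, a single library and the furthest from WT of its table, the intermembrane space genes were below WT, of which TIM8 and TIM9 passed 2-fold. FIT3, a cell wall target of Aft1, had an FPKM of 52.5 in WT replicate 2 and 11634 in AFT1-C291F. TIM9 had 425 in WT and 82.0 in AFT1-C291F, its lowest value in that table. MIM1 had 288 and 89.7, also its lowest value. TOM5 had 4211 and 1410, TIM17 had 788 and 363, and TIM8 had 884 and 412. All 7 genes of the intermembrane space were below WT, with a median ratio of -0.72, beside -0.17 in the outer membrane, -0.29 in the inner membrane and -0.09 over all genes. With the length trend removed 6 of the 7 stayed below 0, the exception being TIM10, and their median was -0.47. In all, 5 members were 2-fold lower and 0 higher, beside 14.2% and 15.6% of genes, and of these MIM1 and TIM9 stayed 2-fold lower with the trend removed, beside 7.71% of genes. TOM70 at 133 and SSC1 at 548 had their highest values of that table here. There is 1 library, so none of this has a replicate check.

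With iron chelation in clean YPD the import genes were within 2-fold of the untreated library, as were most genes. FIT3 went from 356 to 51534 with BPS. No member was 2-fold changed, beside 3.18% of genes higher and 3.91% lower. With so few genes past 2-fold, this does not set the members apart or show equal levels. The median ratio over 33 members was -0.01, as over all genes, with 16 members above 0 and 17 below. TIM9 was lowest, from 285 to 156, and MIM1 highest, from 176 to 235. TIM8 went from 225 to 227 and PAM16 from 335 to 362. With 1 library in each arm these values have no replicate check.

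Across the 9 pairs, 19 of 33 members never passed 2-fold, a count that was not taken over all genes. TOM22 had the narrowest spread, from -0.10 to 0.25, and TIM8 the widest, from -1.98 to 0.69. TIM8 passed 2-fold in 5 pairs, TOM5, TOM7 and TIM9 in 3 each, and TIM9 was below 0 in all 9, which share 3 WT libraries. How often other genes did so was not counted, so this does not set the members apart. The inner membrane median was above the intermembrane space median in 7 of 9 pairs, and in 6 with the length trend removed.

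Ratios of partner mRNAs within a library varied severalfold. TIM10 over TIM9, subunits of 1 chaperone ring, was 2.74 in WT replicate 1, 3.33 in WT replicate 2 and 6.31 in WT in clean YPD, and it was highest in AFT1-C291F at 14.5, in BPS at 11.2 and in sam37Δ at 10.9. TIM8 over TIM13 was 6.34 and 1.93 in the WT libraries in YPD, 1.05 in clean YPD and lowest in sam37Δ at 0.907. As TIM9 and TIM13 share their listed locus with a neighbouring gene, their reads may be split in these ratios. ERV1 has a listed length of 570 nt in the first table and 653 nt in the others, so its FPKM is not on 1 scale between them. MIA40 over ERV1 ran from 0.152 in WT replicate 1 to 1.61 in VPS13-D716H mmm1Δ. In YPD it was higher in each ERMES deletion than in WT of its table, at 0.225 and 0.469 in mmm1Δ replicate 1 and mdm34Δ, and at 1.10 against 0.730 in replicate 2. With the length trend removed, however, log2 ratios to WT in mmm1Δ replicate 1 were nearly equal, at 0.42 for MIA40 and 0.38 for ERV1. They were 1.05 and 0.14 in mdm34Δ, and 0.89 and 0.18 in mmm1Δ replicate 2. Other gene pairs were not counted, so this does not set MIA40 and ERV1 apart. PAM16 over PAM18 ran from 0.308 in WT replicate 1 to 2.14 in sam37Δ. TOM70 over TOM71 kept to between 0.986 and 2.43, and TIM17 over TIM23 to between 1.73 and 4.24. The 3 WT libraries without BPS alone spanned 0.308 to 1.33 for PAM16 over PAM18.

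**Figure D5:**
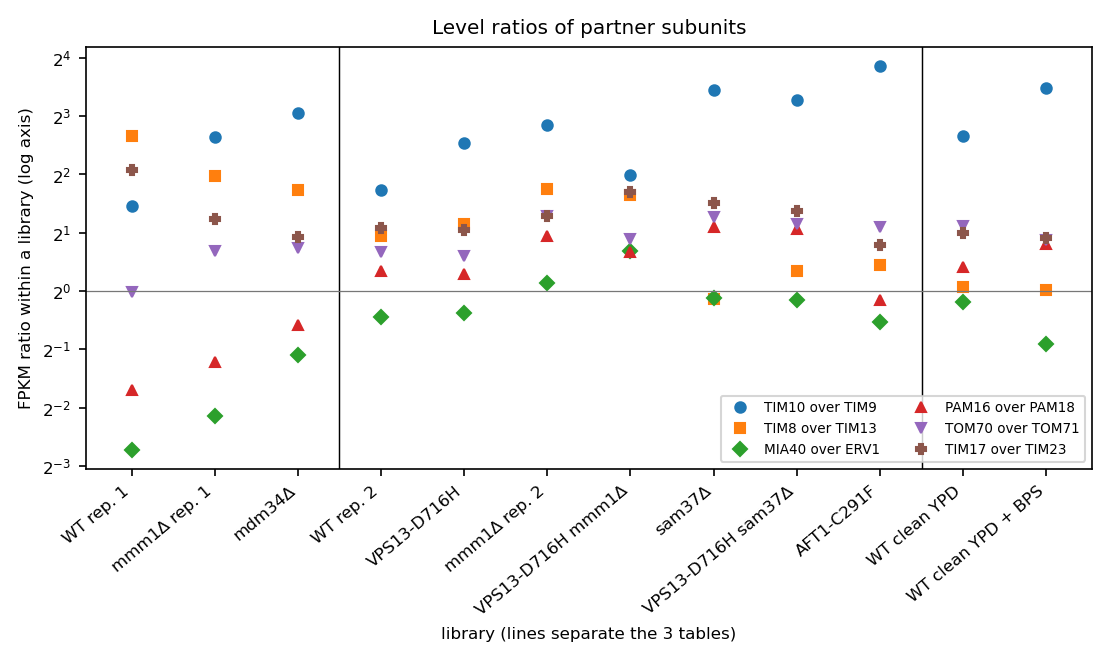
FPKM ratio of 6 partner pairs (log axis) in each of 12 libraries, 1 point each, with lines between tables. TIM10 over TIM9 is highest in AFT1-C291F at 14.5, and TIM8 over TIM13 is highest in WT replicate 1 at 6.34 and lowest in sam37Δ at 0.907.

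Of a wider list of 25 import genes outside the 33, 24 were measured, and limma called none in the mmm1, sam37 or VPS13-D716H fits. XDJ1, a J protein that works with the TOM complex, was 2-fold higher in 5 pairs that share WT libraries, beside 6.32% to 11.8% of all genes. Its FPKM was 12.2 in WT, 26.2 in mmm1Δ and 25.8 in mdm34Δ of the first table, and 24.96 in WT, 54.8 in mmm1Δ, 59.3 in sam37Δ and 63.2 in VPS13-D716H sam37Δ of the second. In clean YPD, however, it was 58.2 in WT. IMP2, a subunit of the inner membrane peptidase, was 2-fold lower in both libraries without SAM37, beside 10.7% and 10.9% of all genes. It was at 57.0 and 55.3 there against 119 in WT replicate 2, and it was 49.7 in clean YPD. In AFT1-C291F the cytosolic Hsp70 gene SSA1 was 2-fold higher and MIM2, MGR2, SOM1, HSP10 and COX18 were 2-fold lower, 1 and 5 of 24 beside 15.6% and 14.2% of all genes. HOT13, whose product keeps Mia40 free of zinc, was the only gene of the list 2-fold higher with BPS, at 774 against 341, beside 3.18% of all genes. MIM2 and MGR2 were also 2-fold lower in mmm1Δ replicate 1 and mdm34Δ, beside 15.8% and 23.4% of all genes. In mdm34Δ HOT13 was lower too, and the cytosolic chaperone gene DJP1 was higher, beside 11.8%. Another such gene, YDJ1, was 2-fold lower in VPS13-D716H mmm1Δ, beside 11.6%.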

How the data were processed

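Per the file headers, the 3 tables deposited by the authors hold FPKM, with 6660 genes in each. The submitters' processing notes name build sacCer3, Cuffdiff 2.0.2 and TopHat2 2.0.8 without roles or settings, and kits were TruSeq or KAPA stranded, per the labels' protocols, without saying which library had which. Depth is unknown: 4 to 12% of 50 low values per library lay within 0.05 of whole multiples of the smallest, so no reads were recovered. Members were matched by systematic name, since 20 of 33 carry their current name in the first table. All members and lists were chosen with earlier results of these data known.

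Ratios are log2(FPKM + 1) within a table, with a minimum mean FPKM of 5. Two-sided tests used limma 3.58.1 (R 4.3.3) with an intensity trend, Benjamini-Hochberg adjustment over all genes and a threshold of 0.05. The fits were also run on simulated data with independent normal errors and planted changes larger than that of any member but SAM37. That run does not show how the tests perform at the sizes seen here. P-values measure only the spread between these libraries. The mmm1 fit has the replicate number, which is also the table, as a block, and same-numbered deviations had r = 0.616 across 6029 genes. Rose and fell are kept for limma calls. The removed trend is a running median over 301 genes by level and by length. Coordinates and sequences are from RefSeq R64 (sacCer3), which has the listed ends of 31 members. Alternatives were another pseudocount, filter or scaling, long genes alone, and leaving out libraries. All members are named by rule, and other genes only from the wider import list or the label checks.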

Additional observations from a re-analysis of the deposited data

Results flagged for a closer look

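In the second table, the mmm1 deletion moved 2 members in opposite directions on the WT and the VPS13-D716H background by 2-fold or more in total. For TIM9 the log2 ratio was -0.55 with WT VPS13 and 0.57 with VPS13-D716H, a difference of 1.12. For OXA1 it was 0.49 and -0.78, a difference of -1.27. Replicate 1, in the first table, gave -1.22 for TIM9 and -0.31 for OXA1 with WT VPS13, so the sign of OXA1 differed between replicates. The second table has 1 library for each genotype on each background, so its difference between backgrounds was not tested. Over 6125 genes, 27.1% differed 2-fold or more in the same comparison, beside 2 of 33 members. For the sam37 deletion 0 of 32 members differed 2-fold between the backgrounds, beside 5.97% of 6134 genes.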

How the results depend on the processing

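No member was called for the mmm1 deletion or the VPS13 allele under any alternative that gives a test. For mmm1 the counts of genes that rose and fell, 165 and 61, became 248 and 124 with a pseudocount of 0.1, 20 and 3 with no filter, 75 and 11 with the trend removed, 364 and 179 for genes that are 300 nt or longer and share no locus, and 0 and 0 with VPS13-D716H mmm1Δ over VPS13-D716H as another pair. Those that fell became 26 with a pseudocount of 5, 175 with a minimum FPKM of 20 and 139 with centred ratios. Without the replicate block, 23 rose and 2 fell and 0 members were called. Leaving out either mmm1 replicate leaves no residual degrees of freedom. For sam37, 1 member, TIM8, was called with a minimum FPKM of 20 (limma adjusted p = 0.0462, range over its alternatives 0.0161 to 0.778), and 8 in the 4 libraries without mmm1Δ. Leaving out 1 library gave 0 to 7 members, 0 to 498 genes that rose and 0 to 874 that fell. The 3 that rose and 59 that fell became 506 and 886 in the 4 libraries, 1 and 4 with no filter, 1 and 8 with centred ratios, and 6 and 95 for long genes alone. Those that rose became 7 with a pseudocount of 5. Those that fell became 120 with a minimum of 20, 9 with the trend removed and 8 with the trend option of limma off. The 31 member ratios past 2-fold (5 higher, 26 lower) became 17 and 4 with the trend removed, 16 (3 and 13) for long genes alone and 80 (26 and 54) at 1.5-fold. The causes were not tested. Unknown depth, separate scaling of tables and single libraries limit every value.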

Other observations

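OXA1 was 1 of 7 members whose percentile in all 3 libraries of the first table lay above every library of the second, beside 11% of 6268 genes. The others were TOM20, SAM35, MIM1, TIM8, TIM12 and TIM13. TOM22, TIM21 and MGE1 lay below in the same sense, beside 15.4% of genes. The tables differ in genotypes as well as in scaling, so these values cannot be ascribed to either.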
